A study of Mus musculus with 7 samples.

Results

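Neutrophil granule genes were followed through EMT6 breast tumors of mice, as 9 genes taken by symbol from the 53465 genes of a table of estimated counts. The 9 genes were the primary granule genes Mpo, Elane and Prtn3, the secondary granule genes Ltf, Camp and Ngp, and the neutrophil markers Ly6g, Retnlg and Fcnb. They were chosen with results of these tumors known, from their levels over the same 7 libraries, so those levels are given as a description and without a test. All 9 were found, and none was left out for low values unless stated.

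EMT6 cells derive from a mammary carcinoma of the mouse, and 500000 of them were placed in the mammary fat pads of Balb/c mice aged 6 to 8 weeks. The 3 EMT6-P tumors came from the parental line and received the isotype control antibody. The 3 EMT6-PTR tumors and 1 metastasis came from the αPD-L1 treatment-resistant variant, which the labels write as EMT6 PDR, and received αPD-L1. In each group the antibody was given at 250 μg per mouse every 3 days from day 1 until the institutional endpoint. EMT6-PTR was selected from mice whose tumors grew back under treatment, so variant and treatment cannot be told apart. The labels do not name the organ of the metastasis, give it no replicate number and do not say that replicates are separate animals. The study names no kind of replicate for the sequenced tumors and counts replicates as technical where none is named, so SDs and tests here may measure technical spread.

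Neutrophils make their granules in sequence while they mature in the bone marrow. Proteases and myeloperoxidase are packed first, in promyelocytes, and lactoferrin, cathelicidin and the neutrophilic granule protein follow in myelocytes. Transcription of these genes is shut down as the cell matures, whereas surface receptors and calgranulins are transcribed in the neutrophils that circulate and enter tissue. The transcription factors PU.1 and the C/EBP family bind in the promoters of many of these genes.

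The genes lie on 6 chromosomes of the mouse genome build GRCm38. Mpo (ENSMUSG00000009350.13) lies on chromosome 11 from 87793581 to 87804413. Elane (ENSMUSG00000020125.7) and Prtn3 (ENSMUSG00000057729.12) are neighbors on chromosome 10, from 79886247 to 79888215 and from 79874476 to 79883174, with no other protein-coding gene in the 3.1 kb between them. Chromosome 9 holds the secondary granule genes Camp (ENSMUSG00000038357.10, 109847379 to 109849617), Ngp (ENSMUSG00000032484.8, 110419747 to 110423012) and Ltf (ENSMUSG00000032496.7, 111019271 to 111042767). They are not adjacent, since 8 coding genes separate Camp from Ngp and 20 separate Ngp from Ltf. Ly6g (ENSMUSG00000022582.4) lies on chromosome 15 from 75155240 to 75159126, Retnlg (ENSMUSG00000022651.5) on chromosome 16 from 48872621 to 48874496, and Fcnb (ENSMUSG00000026835.15) on chromosome 2 from 28076378 to 28084885. Camp and Fcnb are on the minus strand and the others on the plus strand.

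The promoters of these genes are given as sequence only, and whether they had a part in the levels of the genes was not tested. RefSeq promoter windows (GRCm38.p6, 250 bases before to 50 after the start) were matched for all 9 genes and searched on both strands. The C/EBP motif TTGCNNAA stood in the windows of 5 of the 9 genes (Fcnb, Ltf, Ly6g, Ngp and Retnlg) and in 10.8% of all 32851 windows. The PU.1 motif GAGGAAG stood in 5 of the 10 windows, of 4 genes (Elane, Ly6g, Mpo and Prtn3), and in 13.6% of all windows. Camp, also a secondary granule gene, had neither motif in its window. A match of letters is a description and not a binding site. Below are 80 bases just upstream of a secondary granule gene pair and of a primary granule gene, all on the plus strand, with the C/EBP motif in capitals for Ngp (chr9:110419667-110419746) and Ltf (chr9:111019191-111019270, where it reads on the opposite strand) and the PU.1 motif in capitals for Elane (chr10:79886167-79886246).
Ngp: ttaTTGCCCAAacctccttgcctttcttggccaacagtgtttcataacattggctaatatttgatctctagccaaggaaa
Ltf: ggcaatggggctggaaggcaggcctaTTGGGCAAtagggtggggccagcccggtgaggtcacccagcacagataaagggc
Elane: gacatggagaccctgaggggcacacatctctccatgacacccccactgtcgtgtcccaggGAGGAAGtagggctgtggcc

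Total estimated counts were 20430110 to 25213472 per library. On the adjusted library sizes, 3 counts, the limit that a count of 0 allows, correspond to 0.117 to 0.168 CPM. CPM are counts per 1e6 counts of library size, adjusted by the upper-quartile method. Intervals and limits cover counting error only. In EMT6-PTR replicate 2, 13.8% of the counts fell on the gene CT010467.1, against 0.433% to 1.35% elsewhere. The genes of a lung list and an erythroid list took 1.7% of the counts of the metastasis and at most 0.0356% of those of any primary tumor.

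Granule genes were close to absent from the primary tumors of both groups, and all 9 were at their highest in the metastasis. Together they took 1.42, 2.46 and 0.63 parts per 1e6 of the library total in EMT6-P replicates 1 to 3. They took 1.26, 2.01 and 16.4 in EMT6-PTR replicates 1 to 3, where Prtn3 alone made up 342 of the 414 counts of replicate 3. In the metastasis they took 659.5 parts (exact 95% interval 649.4 to 669.7), and 670.9 when lung and erythroid genes were left out of the total. In bulk tissue, more neutrophils and more RNA of these genes per neutrophil cannot be told apart. With 1 metastasis, differences from it have no replicate check.

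**Figure D1:**
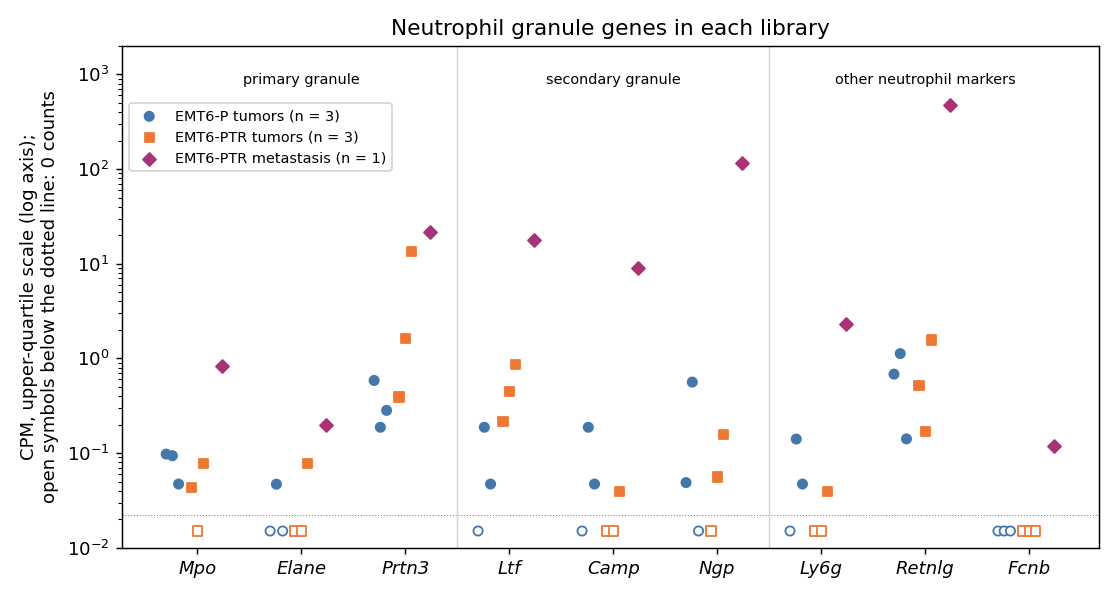
CPM of the 9 granule genes in each of the 7 libraries on a log axis, with 0 counts drawn as open symbols below the dotted line. The metastasis lies above all 6 primary tumors for each gene, and only Prtn3 in EMT6-PTR replicate 3, at 13.4 CPM, comes near it.

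Across genes, levels can be set side by side only per length. In CPM per kb of exon, Retnlg stood highest in the metastasis at 793, followed by Ngp at 94, Prtn3 at 12.6, Camp at 12, Ltf at 5.22 and Ly6g at 2.46. Mpo at 0.241, Elane at 0.2 and Fcnb at 0.0881 CPM per kb closed the order. With the longest transcript as the length the order was unchanged for the 9 genes, and Prtn3 stood at 21.4 CPM per kb. With 1 library the order has no replicate error, and the neighbors Prtn3 and Camp, like Mpo and Elane, differed by less than 1.5-fold on the exon scale.

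Among the primary granule genes, Mpo encodes myeloperoxidase, which forms hypochlorous acid. Its estimated counts were 2, 2 and 1 in EMT6-P replicates 1 to 3, 1, 0 and 2 in EMT6-PTR replicates 1 to 3, and 21 in the metastasis. The metastasis stood 18.3-fold above the pooled EMT6-PTR tumors (exact 95% interval 5.46 to 95.8) and 10.4-fold above the EMT6-P tumors (3.83 to 35.4). The first was 33.8-fold (5.43 to 1400) without EMT6-PTR replicate 3. The primary tumors were all at or under 3 counts, where no difference between groups was detectable, and Mpo shares its locus with the antisense gene Gm11505. Elane, neutrophil elastase, was lower still. It had 0, 1 and 0 counts in EMT6-P, 0, 0 and 2 in EMT6-PTR and 5 in the metastasis, a ratio of 6.54 to EMT6-PTR with an interval of 1.07 to 68.6. Neither held more than 21 counts in the library where Ngp had 2924 and Retnlg 11961. The ratio of Elane to EMT6-PTR was 4.27 (0.7 to 44.9) without EMT6-PTR replicate 1 and 4.78 (0.782 to 50.2) without replicate 2, intervals that include 1.

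Prtn3, proteinase 3, is packed in the same granules but did not follow Mpo and Elane. It stood at 0.584, 0.187 and 0.282 CPM in EMT6-P replicates 1 to 3 (0.351 ± 0.207, SD, n = 3). In EMT6-PTR replicates 1 to 3 it stood at 0.391, 1.62 and 13.4 CPM (5.13 ± 7.16, SD, n = 3), and in the metastasis at 21.9 CPM. EMT6-PTR replicate 1 fell within the EMT6-P range and replicate 3 stood apart from every other primary tumor. The log2 fold change of EMT6-PTR against EMT6-P in edgeR's fit was 3.85 (standard error 1.33), which dropped to 1.48 when EMT6-PTR replicate 3 was left out. The metastasis exceeded the pooled EMT6-PTR tumors by 3.83-fold (3.36 to 4.38), replicate 3 alone by 1.64-fold (1.43 to 1.88), and the other two EMT6-PTR tumors by 23.6-fold (17 to 33.7).

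In EMT6-PTR replicate 3 the 342 counts of Prtn3 stood beside 2 counts each of Elane and Mpo, 4 of Ngp, 1 of Camp and 1 of Ly6g. Ltf with 22 and Retnlg with 40 counts were also at their highest among the 6 primary tumors there. S100a9, a calgranulin of neutrophils and monocytes, was at 11.1 CPM there, within the 6.16 to 29.0 CPM of the other primary tumors. Per 100 counts of S100a9, Prtn3 had 121 counts in that tumor, 0.645 to 8.53 in the other primary tumors and 1.44 in the metastasis. By the same measure Retnlg had 14.1 in that tumor against 0.882 to 4.07 in the other primary tumors, and Ltf 7.77 against 0 to 2.35. Prtn3 overlaps the start of Plppr3, which lies on the opposite strand. Plppr3 stood at 2.07 CPM in EMT6-PTR replicate 3 and at 2.19 to 3.91 CPM in the other primary tumors. The library kit marks strand, but whether the counting used it is not given in the sources used here. Cfd, the gene after Elane, had 0 counts in the same tumor and 0.0786 CPM in the metastasis. Of the next genes along the chromosome, R3hdm4 stood at 99.9 CPM in EMT6-PTR replicate 3 and 92.6 CPM in the metastasis, against 48.7 to 65.0 CPM in the other primary tumors. Med16 stood at 54.3 and 52.0 CPM against 29.3 to 40.7 CPM, and Kiss1r at 0.938 and 1.77 CPM against 0.141 to 0.782 CPM. These 3 genes were thus highest in the same libraries as Prtn3, whereas Arid3a was lowest in EMT6-PTR replicate 3, at 9.97 CPM. The genes of this locus were chosen after their values were seen.

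**Figure D2:**
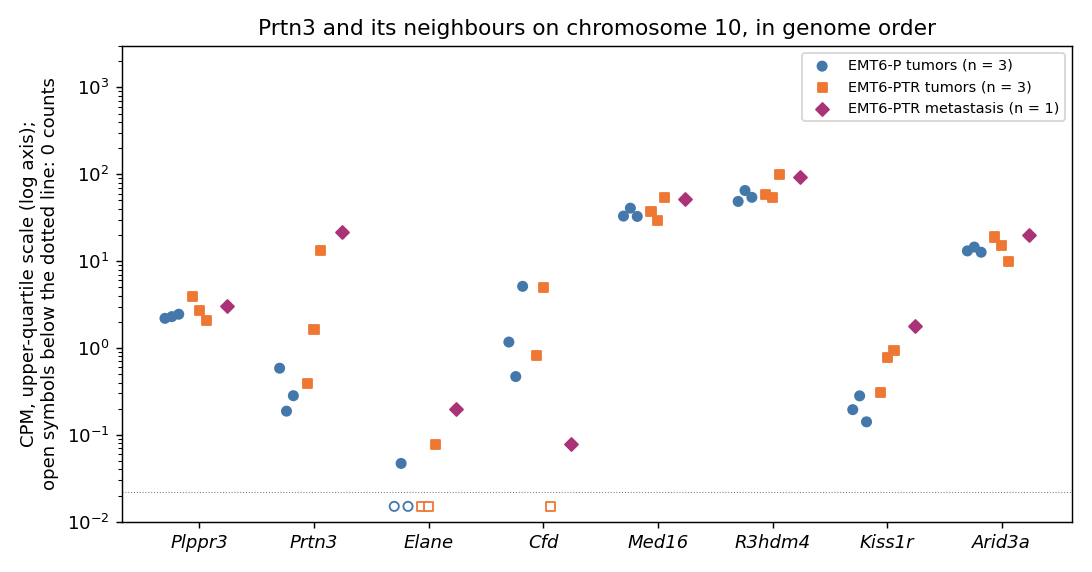
CPM of Prtn3 and 7 neighbors on chromosome 10, in genome order, in each library, on a log axis, with 0 counts as open symbols below the dotted line. Prtn3 spans 0.187 to 21.9 CPM, Plppr3 2.07 to 3.91 CPM and Elane 0 to 0.197 CPM, and Med16, R3hdm4 and Kiss1r are highest in the same libraries as Prtn3 over narrower ranges.

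The genes whose log2 CPM was most like that of Prtn3 over the 7 libraries were Gstm2-ps1 (Pearson's r 0.996), Selenbp2 (0.992), Zadh2 (0.991), Nnmt (0.990) and Gstm1 (0.987). These encode, apart from the pseudogene, enzymes and binding proteins of detoxification and small-molecule metabolism and no neutrophil protein. Selenbp2, for example, stood at 0.779, 0.187 and 0.470 CPM in EMT6-P, at 0.738, 1.73 and 12.8 CPM in EMT6-PTR and at 32.2 CPM in the metastasis. Over the 6 primary tumors alone the closest were Gstm2-ps1 (0.996), 5430403G16Rik (0.994), Lpar4 (0.994), Ghr (0.993) and Agt (0.993). Ghr, the growth hormone receptor, stood at 339.0 CPM in EMT6-PTR replicate 3 and at 26.3 to 68.8 CPM in the other primary tumors. That tumor also had the lowest level of the carcinoma keratin Krt8, 505 CPM against 1676 to 1897 in the other 5. These correlations are a description, since the points share 7 libraries and 1 or 2 of them set the value. Whether the other cells of this tumor had a part in its Prtn3 level was not tested.

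The secondary granule genes were led by Ngp, a cystatin-family protein of the granule matrix. Its counts were 1, 12 and 0 in EMT6-P, 0, 1 and 4 in EMT6-PTR and 2924 in the metastasis, or 114.9 CPM there against at most 0.562 CPM in a primary tumor. The ratio to the EMT6-PTR tumors was 1530 (654 to 4710) and that to the EMT6-P tumors 558 (326 to 1050). The first rests on 5 counts and was 1000 without EMT6-PTR replicate 1 and 4700 without replicate 3. Camp encodes cathelicidin, an antimicrobial peptide. It had 0, 4 and 1 counts in EMT6-P, 0, 0 and 1 in EMT6-PTR and 231 in the metastasis, a ratio of 604 (107 to 24000) to EMT6-PTR and 115 (48.5 to 357) to EMT6-P. The first of these was 395 without EMT6-PTR replicate 1, and without replicate 3 the EMT6-PTR tumors held no count. EMT6-P replicate 2 was the highest primary tumor for both Ngp and Camp.

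Ltf, lactoferrin, binds iron and was the secondary granule gene with the clearest signal in primary tumors. It had 0, 4 and 1 counts in EMT6-P (0.0781 ± 0.0974 CPM, SD, n = 3) and 5, 8 and 22 in EMT6-PTR (0.508 ± 0.326 CPM, SD, n = 3). The groups did not overlap, although 1 count separated the highest EMT6-P tumor from the lowest EMT6-PTR tumor. Of the 4 granule genes with at least 10 counts over the 6 primary tumors, Ltf was the 1 for which every EMT6-PTR value lay above every EMT6-P value, beside 9.13% of all 20336 genes at that minimum. In the metastasis it had 458 counts, 34.2-fold above EMT6-PTR (24.2 to 49.7) and 227-fold above EMT6-P (96.7 to 704). The first was 56.7-fold without EMT6-PTR replicate 3.

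Retnlg, resistin-like gamma, is secreted by granulocytes and was the most abundant of the 9 genes in the metastasis. In EMT6-P replicates 1 to 3 it stood at 0.682, 1.12 and 0.141 CPM (0.649 ± 0.492, SD, n = 3), and in EMT6-PTR replicates 1 to 3 at 0.521, 0.168 and 1.56 CPM (0.751 ± 0.726, SD, n = 3). The groups overlapped throughout, and the log2 fold change of 0.24 (standard error 0.93) turned to -0.86 without EMT6-PTR replicate 3. It was -0.24 without EMT6-P replicate 3. In the metastasis it reached 470.1 CPM, or 11961 counts, 569-fold above EMT6-PTR (437 to 755) and 724-fold above EMT6-P (534 to 1010). The former was 1280-fold without EMT6-PTR replicate 3. Retnlg shares 5.51% of its 31-base stretches with Retnla, which stood at 49.6 CPM in the metastasis and at most 0.0559 CPM elsewhere, so a small part of its counts is uncertain.

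Ly6g encodes the surface antigen by which mouse neutrophils are sorted. It had 0, 3 and 1 counts in EMT6-P, 0, 0 and 1 in EMT6-PTR and 59 in the metastasis. The ratio to EMT6-PTR was 154 (26.6 to 6190), or 101 without EMT6-PTR replicate 1, and that to EMT6-P was 36.6 (13.6 to 139). Ly6g shares 9.55% of its 31-base stretches with other genes, among them Ly6i and Ly6c1, and reads may have been divided among them. Fcnb, ficolin B, a lectin of the complement system, was not detected in any primary tumor and had 3 counts in the metastasis, where no fold can be given.

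**Figure D3:**
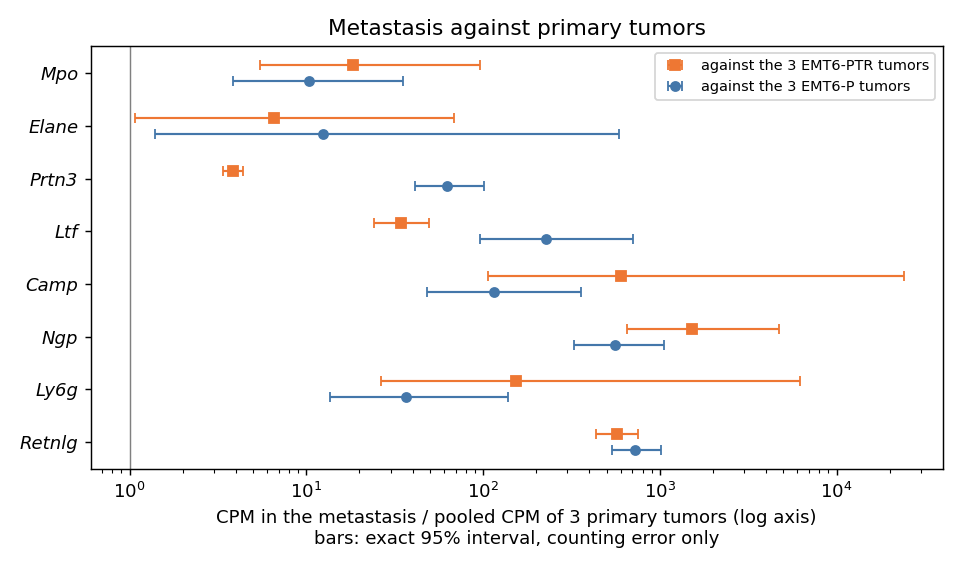
Ratio of CPM in the metastasis to the pooled CPM of the 3 EMT6-PTR or the 3 EMT6-P tumors for 8 granule genes, on a log axis, with exact 95% intervals that cover counting error only. The ratios run from 3.83 for Prtn3 against EMT6-PTR to 1530 for Ngp, and Fcnb is left out because the primary tumors held no count.

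Between EMT6-PTR and EMT6-P, edgeR's quasi-likelihood test on 15645 genes called 0% higher and 0% lower at an adjusted p under 0.05. Only Retnlg and Prtn3 of the 9 granule genes had enough counts to enter that fit. Neither was called, like every other gene, so nothing about these members is read from it. Against the metastasis, 7 of the 9 had at least 10 counts over the 4 resistant libraries, reached through the metastasis itself in all cases but Prtn3, Ltf and Retnlg. All 7 were at least 4-fold above the EMT6-PTR mean on the log2 scale with a prior count of 2, beside 9.48% of 20432 genes. For Ngp, Retnlg, Camp and Ltf the difference was at least 32-fold, beside 1.3% of genes. Those differences were 9.60 for Ngp, 9.52 for Retnlg, 6.49 for Camp and 5.07 for Ltf on the log2 scale. The genes were chosen with this contrast known, and nothing is read from these counts.

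The other genes of the neutrophil program were counted from lists written by role, with earlier results of these data known. None of their genes passed the test between EMT6-PTR and EMT6-P, and among those tested the signs were mixed. Of 17 mature neutrophil genes tested, 8 lay above 0 and 9 below on the log2 scale (median -0.11), beside a median of 0.03 over all genes. Of 10 other secondary and tertiary granule genes, 5 lay above and 5 below (median 0.11), and all 3 other primary granule genes lay below (median -0.12). Of 4 granulocyte transcription factors, 2 lay above and 2 below (median -0.04), and of 11 attractants and growth factors, 6 lay above and 5 below (median 0.16). Hdc, histidine decarboxylase, had the largest rise among mature neutrophil genes, at 2.14, 4.03 and 1.83 CPM in EMT6-P and 3.69, 8.94 and 6.29 CPM in EMT6-PTR. That log2 difference of 1.24 ± 0.46 (standard error) did not pass edgeR's quasi-likelihood test (adjusted p 0.427). Lcn2, the secondary granule siderophore binder that tumor cells also make, stood at 383 CPM in EMT6-PTR replicate 2 and at 17.5 to 78.3 CPM in the other primary tumors.

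In the metastasis, genes of mature neutrophils and of late granules stood high with the granule genes. Beside 9.48% of all genes at least 4-fold and 1.3% at least 32-fold above the EMT6-PTR mean, of 20 mature neutrophil genes 18 were at least 4-fold and 10 at least 32-fold above it, with a median log2 difference of 4.98. Of those 20, 1 reached the minimum of 10 counts only through the metastasis. Padi4 and Cxcr1 were not among the 18, with log2 differences of -0.74 and 1.51. The lists were written with earlier results of these data known. S100a9 stood at 1519 CPM there, and the whey acidic protein family gene Wfdc21 at 40.8 CPM against at most 0.313 CPM in a primary tumor. Trem1, an activating receptor of myeloid cells, stood at 145.8 CPM against 3.56 to 14.9 CPM. Of 12 other secondary and tertiary granule genes, 8 were at least 4-fold and 5 at least 32-fold above (median 3.57). Chil3, a chitinase-like protein of neutrophils and alveolar macrophages, reached 387 CPM against at most 2.03 CPM. Mmp9, the gelatinase of tertiary granules, did not follow, at 110.3 CPM against 15.04 to 322 CPM in the primary tumors.

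The other primary granule genes were lower in the order. Of 5 with at least 10 counts over the resistant libraries, 2, Prss57 and Srgn, were at least 4-fold above the EMT6-PTR mean and none 32-fold. This stands beside 9.48% and 1.3% of all genes, and the median was 0.40. Ctsg and Ms4a3 did not reach that minimum, so the list does not cover them. Srgn stood at 404.1 CPM in the metastasis and at 71.35 to 112.8 CPM in the primary tumors. Prss57, a neutrophil serine protease, stood at 1.73 CPM in the metastasis and at most 0.375 CPM elsewhere. Lyz2, the lysozyme of macrophages as well as neutrophils, stood at 1059 CPM, within the 476 to 1392 CPM of the primary tumors. Of 7 granulocyte transcription factors, 4 were at least 4-fold above (median 2.42), again beside 9.48% of all genes. Of the 7, Cebpe, Gfi1 and Myb reached the minimum of counts only through the metastasis. These 3 are among the 4 and raise the median, so nothing is read from that share. The remaining gene of the 4 was Cebpd, at 270.4 CPM against 16.4 to 53.7 CPM. Spi1, which encodes PU.1, stood at 75.4 CPM against 25.2 to 44.8 CPM.

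Attractants stood high in the same library. Of 11 attractant and growth factor genes, 9 were at least 4-fold above the EMT6-PTR mean and 4 at least 32-fold, with a median of 4.59, beside 9.48% and 1.3% of all genes. Cxcl2, a ligand of the neutrophil receptor Cxcr2, stood at 802 CPM against 1.41 to 12.9 CPM in the primary tumors. Il1b, the gene of interleukin 1 beta, stood at 1238 CPM against 2.35 to 65.5 CPM. The neutrophil attractant Cxcl5 lay closer to the primary tumors, at 93.0 CPM against 8.602 to 68.1 CPM.

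**Figure D4:**
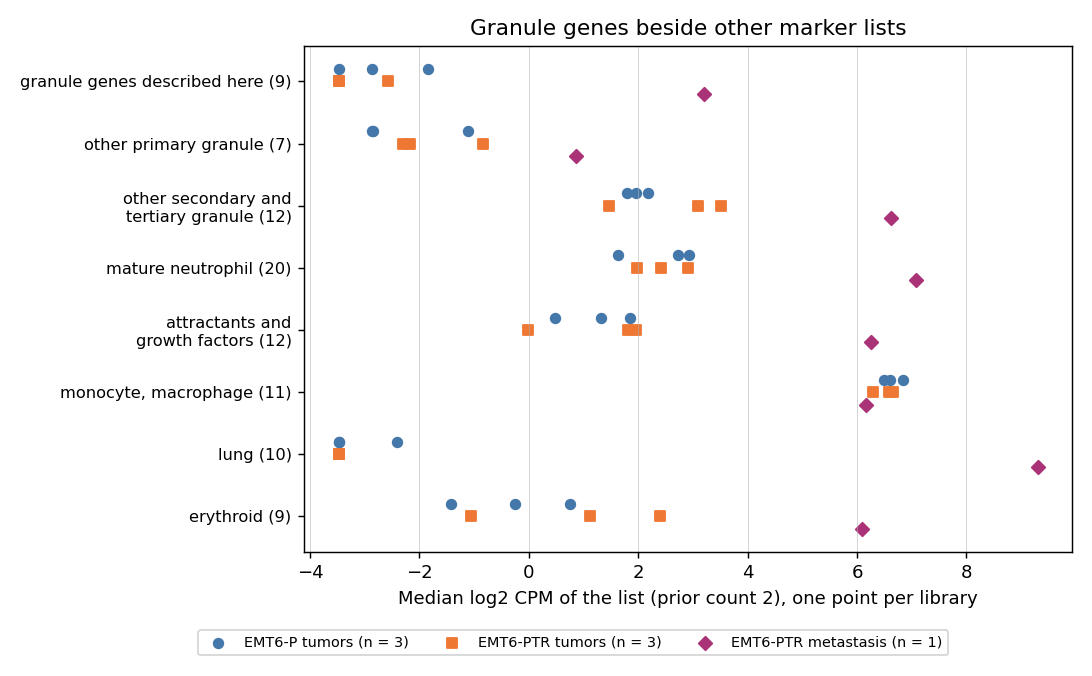
Median log2 CPM (prior count of 2) of the 9 granule genes and of 7 marker lists, with 1 point per library and the number of genes in parentheses. The metastasis stands apart for the neutrophil, attractant, lung and erythroid lists, at 7.08 for mature neutrophil genes and 9.30 for lung genes, whereas the monocyte and macrophage list lies at 6.17 against 6.29 to 6.84 in the primary tumors.

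Set against S100a9, the granule genes of the metastasis did not keep one ratio to each other. Per 100 counts of S100a9, Retnlg had 30.9 counts in the metastasis and 0.882 to 14.1 in the primary tumors, and Ngp had 7.56 against 0 to 1.94. Camp had 0.598 against 0 to 0.763 and Ltf 1.18 against 0 to 7.77. Mpo had 0.0543, below the 0.284 to 0.763 of the 5 primary tumors with a count, and the sixth had 0 counts. Except for Prtn3, the ratios of the granule genes in primary tumors rest on 0 to 40 counts, too few to place most of them above or below the metastasis. S100a8, the partner of S100a9, had 37.8 counts per 100 against 46.5 to 70.0. This measure was chosen after the values were seen.

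Markers of other cells moved in the same library. All 10 lung genes were at least 4-fold above the EMT6-PTR mean, beside 9.48% of all genes, although 7 of them reached the minimum of counts only through the metastasis. The summed CPM of that list was 8714 in the metastasis and 4.26 to 27.2 in the primary tumors. Scgb1a1, the club cell secretoglobin, stood at 2957 CPM against at most 1.07 CPM. Of 9 erythroid genes, 8 were at least 4-fold above, 3 of the 9 having reached the minimum only through the metastasis, and the list summed to 7675 CPM against 31.2 to 379.7 CPM. Hbb-bs, a globin that circulating red cells carry, stood at 3735 CPM against 12.4 to 165.5 CPM. The pan-leukocyte list summed to 657 CPM against 314 to 566 CPM, with none of its 4 genes at least 4-fold above. Of 11 monocyte and macrophage genes, 1, the monocyte gene Ly6c2, was 4-fold above, and C1qa stood at 344.9 CPM against 380.1 to 480.1 CPM. The part of lung tissue and of blood in the levels of the granule genes was not tested, and tumor site and library cannot be told apart with 1 metastasis.

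Likeness over the 7 libraries was set by the metastasis for the other 5 genes that had at least 50 counts. Retnlg was most like Hcst (r 0.997), Stfa2l1 (0.993), Clec4e (0.993), Irx1 (0.992) and Slc26a9 (0.990). Stfa2l1, a stefin, stood at 216 CPM in the metastasis and at most 1.68 CPM elsewhere. Ngp was most like Tmem82, Dusp1, Gm7694, Igsf5 and Gm45222 (r 0.988 to 0.996). Ltf was most like Gpcpd1, Kdm6b, Hlf, Sema4a and Rbpjl (0.985 to 0.993). Camp and Ly6g shared Mok, Stfa3, Igsf5 and Gm45222 among their 5 closest genes (0.988 to 0.993), with Stx11 (0.992) for Camp and Ttc38 (0.987) for Ly6g. The stefin Stfa3 stood at 24.6 CPM in the metastasis and at most 0.328 CPM elsewhere.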

How the data were processed

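Stranded polyadenylated RNA libraries were made from 6 primary tumors, 3 per group, and 1 metastasis. Per the submitters' processing notes and the study's methods, the authors used FastQC 0.11.5, STAR 2.6.0a with GRCm38 and GENCODE M16, and RSEM 1.3.1, and deposited estimated counts per gene without normalization. RSEM divides reads that fit several genes by estimation. Symbols and positions came from GENCODE M21 of the same assembly (53274 of 53465 identifiers). No protein sequences were used here.

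Members and gene lists were chosen with earlier results of these data known. Counts were rounded, filtered with filterByExpr, normalized by the upper quartile and compared over the 6 primary tumors in edgeR 4.0.16 (quasi-likelihood test, Benjamini-Hochberg, threshold 0.05; R 4.3.3). CPM of all 7 libraries used the same scaling. Log2 differences used a prior count of 2. Ratios to pooled tumors have exact 95% binomial intervals. Genes named are the members, up to 4 genes of each list (highest mean, largest rise and fall, largest difference in the metastasis) and, for members with at least 50 counts, the 5 most alike genes with a mean of at least 1 CPM. Others were chosen after their values were seen. Alternatives were TMM, DESeq2 1.42.0, limma-voom (limma 3.58.1), other filters, prior count and library sizes, gene length, the metastasis in the fit, a replicate block, and leaving out each tumor. The fits were also run on simulated data. There edgeR's test found most altered genes at a low spread between replicates and almost none at a high spread. A lack of calls therefore does not show that groups are alike.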

Additional observations from a re-analysis of the deposited data

How the results depend on the processing

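No gene was called higher or lower in EMT6-PTR than in EMT6-P by edgeR's quasi-likelihood test, although 1786 of 15645 genes had an unadjusted p under 0.05. The counts ranged from 0 to 0 with each tumor left out, which says nothing about stability. DESeq2 called 138 genes higher and 143 lower, and the cause was not tested. No gene of the wider neutrophil lists was called under any alternative for which calls were counted. Calls were not counted for the library size without the most abundant genes. Those lists do not hold the granule genes themselves, so that result does not cover Prtn3 or Retnlg. In the DESeq2 fit the log2 fold change was 3.9 (standard error 1.14) for Prtn3 and 0.25 (standard error 1.07) for Retnlg. Whether DESeq2 called either gene is not given here. With the replicate number as a block, 0 genes were called and the log2 fold change of Prtn3 was 2.79. Deviations of same-numbered tumors correlated at 0.26, 0.25 and 0.04. EMT6-PTR replicates 1 and 2 were closest to the EMT6-P tumor of the same number, and replicate 3 to EMT6-P replicate 2 (0.08). These values do not settle whether the numbers pair the tumors. The log2 fold change of Prtn3 was 2.69 with limma-voom. With each tumor left out it ranged from 1.48 to 4.42, and that of Retnlg from -0.86 to 0.88. When the prior count was 0.5 and not 2, the log2 difference of the metastasis was 10.72 for Ngp, 8.17 for Camp, 6.21 for Ly6g and 4 for Mpo, because the primary tumors hold few counts. Of all values of single genes and lists under alternatives, 271 moved by less than their spread and 42 did not. The 42 include values that stayed the same to the digits given but had a spread of 0. The 271 include the sign change of Retnlg, whose spread was wide, so this tally does not measure stability. With at least 10 counts required in every sample, neither Prtn3 nor Retnlg could be fitted. Depth limits Mpo, Elane, Camp, Ly6g and Fcnb in primary tumors, where each library held at most 4 counts.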

Other observations

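Other granulocytes were described by the same kind of list. Of 9 eosinophil genes, Ear6 and the granule proteins Epx, Prg2 and Prg3 had no count in the metastasis. They stood at most at 0.0559 CPM in a primary tumor, so those 0 counts do not set the metastasis apart. Ear2, a ribonuclease of eosinophils and alveolar macrophages, stood at 7.94 CPM there and at most 0.0940 CPM in a primary tumor. Ear1, Siglecf and Il5ra were also highest there, at 2.12, 0.825 and 0.118 CPM, whereas Ccr3 was lowest, at 0.0786 CPM. The mast cell and basophil list had its members apart. Mcpt8, the protease of basophils, stood at 3.65, 7.72 and 1.97 CPM in EMT6-P, at 4.52, 0.559 and 0 CPM in EMT6-PTR and at 0.118 CPM in the metastasis. Kit, the stem cell factor receptor, stood at 33.4 CPM in the metastasis against 3.05 to 7.54 CPM, and Gata2, a transcription factor of mast cells, basophils and endothelium, at 43.4 CPM against 1.34 to 10.0 CPM. The eosinophil genes named here, apart from Ear2 and Ccr3, were chosen after their values were seen.

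In EMT6-PTR replicate 3, where Prtn3 was highest among primary tumors, several attractants were at their lowest. Il1b stood at 2.35 CPM against 22.0 to 65.5 CPM in the other 5, Cxcl2 at 1.41 against 3.01 to 12.9 CPM, and Csf2 at 0.0782 against 0.611 to 1.66 CPM. The muscle gene Acta1 stood at 1650 CPM in EMT6-PTR replicate 1, the tumor with the lowest Prtn3 of its group. In EMT6-P the order was the reverse. Replicate 1 had the highest Acta1 and Prtn3, at 245.3 and 0.584 CPM, and replicate 2 the lowest, at 5.43 and 0.187 CPM.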
